A study of Mus musculus with 6 samples.

Results

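The 10 genes described here act in the recognition and engulfment of dead cells, and they were followed by single-nucleus RNA sequencing (snRNA-seq) of degenerating mouse retina. They are the receptors Mertk, Axl and Tyro3, their ligands Gas6 and Pros1, the receptor Trem2 with its adaptor Tyrobp, the bridging protein Mfge8, and the integrin subunits Itgav and Itgb5. They were chosen by gene symbol, and all 10 were found among the 32285 genes of the count matrices. The animals were rd10 mice (B6.CXB1-Pde6b-rd10/J), in which a mutation of the rod phosphodiesterase gene Pde6b makes rods die. Both groups carried that mutation, so neither group shows a retina without degeneration. Saline or 20 ng of recombinant IL-27, an immune cytokine, was injected into the vitreous at postnatal day 18 (P18), and retinas were collected at P20 for nuclear isolation from frozen tissue. The 3 saline libraries are replicates 1, 2 and 6, and the 3 IL-27 libraries are replicates 4, 5 and 10. The labels do not tie the libraries to separate animals, so the p-values below measure the spread between these samples. The comparison asks whether the injection altered the clearance genes of microglia, Muller glia and the other retinal cells.

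Dying cells expose phosphatidylserine on their surface, and phagocytes read it through bridging proteins. Gas6 and Pros1 (protein S) bind this lipid and the receptor tyrosine kinases Tyro3, Axl and Mertk, known as the TAM receptors, while Mfge8 links it to the integrin made of the Itgav and Itgb5 chains. Trem2 binds lipids and lipoproteins on myeloid cells and signals through the adaptor Tyrobp (DAP12). In the eye, Mertk is best known in the retinal pigment epithelium, where it is needed to engulf shed photoreceptor outer segments, and microglia and Muller glia are also known to take up dying photoreceptors.

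The 6 libraries held 8968 to 9965 barcodes and 36678332 to 48260748 unique molecular identifiers (UMIs, 1 per captured RNA molecule). After filtering and doublet removal 8239 to 9162 nuclei remained per library. Of 56261 distinct barcodes, 372 were found in 2 or more libraries. The X-inactivation transcript Xist was at 2028 counts per 1000000 UMIs (CPM) in saline replicate 2 and 1999 CPM in IL-27 replicate 5, and at 0.15 to 0.41 CPM in the other libraries, so each group held 1 library that made it. IL-27 replicate 10 stood apart in Muller glia, with 430 of its 648 Muller nuclei in a subcluster led by Fkbp5 and Prss56.

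Cell types were named from marker genes, none of which is 1 of the 10 genes described. The Muller cluster held 4767 nuclei and the microglial cluster 1565. The 10 microglial markers (among them Cx3cr1, P2ry12 and Csf1r) were all detected in the microglial cluster, and together they took 42.8 to 49.1 of every 10000 UMIs there, against 1.92 to 2.43 in Muller glia and 1.51 to 2.18 in rods. The 10 Muller markers, which include the broadly made Apoe and Clu, took 77.3 to 93.7 of every 10000 UMIs in Muller glia and 37.4 to 54.4 in the microglial cluster.

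The microglial cluster was a mixture, mostly of immune nuclei. Clustering its nuclei again gave 262 nuclei led by Siglech and Nav3, 149 led by Igf1 and Apbb2 and 60 cycling nuclei led by Top2a. These 471 nuclei are called homeostatic microglia here. The name means that at least 3 homeostatic markers, from a list with P2ry12 and Tmem119, were above the rest of this mixed cluster. It does not mean resting nuclei, since some were cycling and Igf1 is also on the list of disease-associated genes. A further 257 nuclei were led by Gpnmb and Lgals3, genes known from phagocytic microglia and macrophages. Ccr2, a receptor of blood monocytes, and Klra2 led 531 nuclei, H2-Eb1 and Flt3 led 85, Ccr7 and Il4i1 led 39, and the T cell genes Lck and Skap1 led 95. The other 87 nuclei were led by photoreceptor genes (47) or neuronal genes (40), and without them, an alternative chosen after the data were seen, edgeR called 0 of the 10 genes in the cluster, as with them. Markers of perivascular macrophages and monocytes took 5.07 to 7.27 of every 10000 UMIs in the whole cluster, and all 7 of them were detected. The responses to IL-27 are therefore given for the whole cluster and for homeostatic microglia.

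Mertk was high in both retinal phagocytes, at 1003 ± 97.1 CPM (SD, n = 6 libraries) in microglia and 339 ± 30.8 CPM in Muller glia. Microglia ranged from 893 to 1145 CPM, and Muller glia from 292 to 385 CPM, so the ranges did not overlap. Pericytes followed at 168 ± 77.1 CPM and overlapped with Muller glia, then endothelial cells at 59.9 CPM and astrocytes at 41.1 CPM. The neurons, rods included, lay between 0.68 and 4.12 CPM on average. The level was 2.96 times higher per UMI in microglia than in Muller glia, and microglia were above Muller glia in 6 of 6 libraries. Muller glia, with more nuclei and more UMIs per nucleus, held 63.4% of all Mertk UMIs with 9.13% of the nuclei, and microglia held 30.7% with 3.0% of the nuclei.

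Axl, the TAM receptor that is known to be induced by inflammation, was at 250 ± 47.2 CPM in microglia and 42.3 ± 4.34 CPM in Muller glia. Microglia (169 to 290 CPM) lay above pericytes (101 to 166 CPM) in 6 of 6 libraries, and pericytes lay above astrocytes (75.2 CPM on average) in 6 of 6 libraries, both without overlap. Astrocytes and Muller glia overlapped.

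Tyro3, by contrast, was nearly absent from microglia. Only 3 Tyro3 UMIs were found in the summed microglial nuclei of the 6 libraries, 1 in each IL-27 library, which is too few for a comparison. Astrocytes were at 12.5 CPM on 15 UMIs, rods at 8.49 ± 2.07 CPM, Muller glia at 6.89 ± 2.02 CPM and ganglion cells at 6.18 ± 1.73 CPM, and each of these 4 types overlapped with the next. No Tyro3 UMI was found in endothelial cells.

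The plot of levels by cell type gathers the mean of the 6 libraries for each gene.

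**Figure D1:**
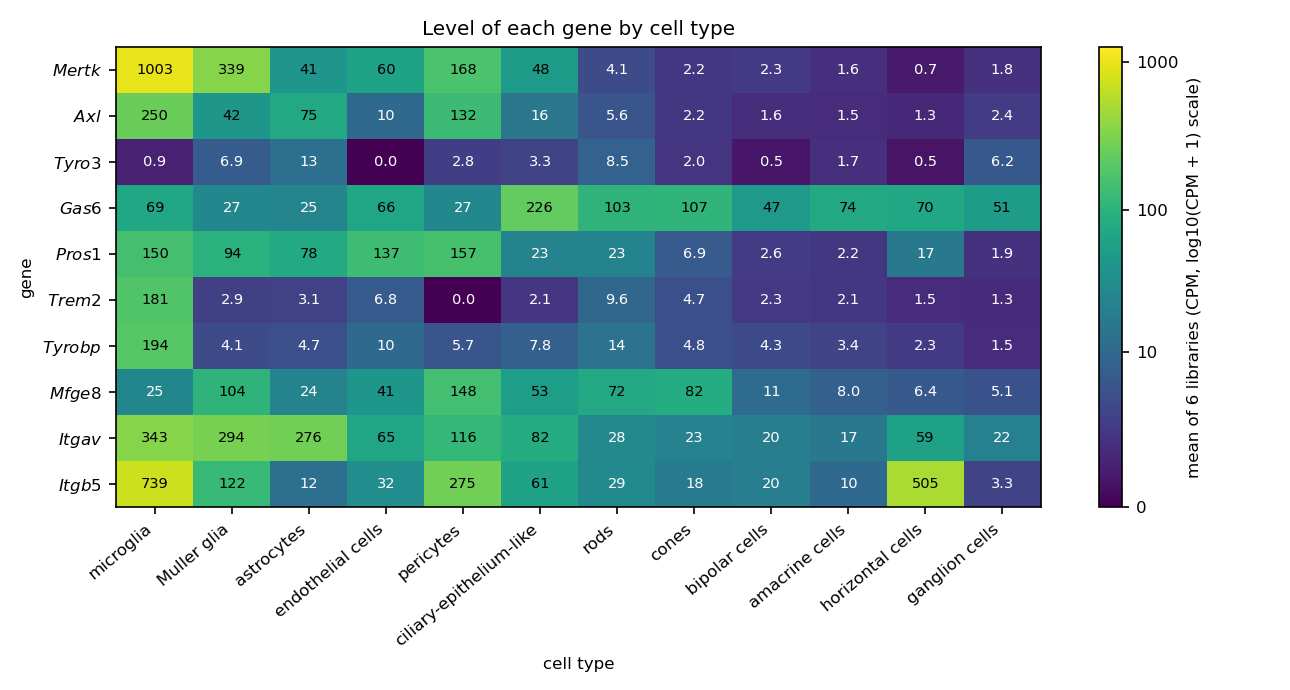
Heat map of the 10 genes (rows) in 12 cell types (columns), where the number and colour of each cell give the mean level over the 6 libraries in CPM, on a log10(CPM + 1) colour scale. Trem2 and Tyrobp stand out in microglia alone, Mertk in microglia and Muller glia, and Gas6 is spread over neurons and glia; colours compare cell types within a row, since CPM is not scaled to gene length.

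Gas6, the ligand of all 3 TAM receptors, was widespread and came mostly from neurons. Cones were at 107 ± 9.95 CPM and rods at 103 ± 10.6 CPM, with overlapping ranges. Rods were above amacrine cells (74.1 ± 4.34 CPM) in 6 of 6 libraries without overlap, whereas amacrine cells, horizontal cells (70.1 CPM) and microglia (68.8 ± 24.9 CPM) overlapped. Muller glia were low, at 26.7 ± 3.85 CPM. Amacrine cells held 28.5% of all Gas6 UMIs, bipolar cells 15.2% and rods 14.2%. Nuclei left without a cell type name held 16.6% with 6.49% of the nuclei. The highest average belonged to nuclei of a cluster with ciliary epithelium markers, at 226 CPM with a range from 85.8 to 521 CPM, but that cluster had 6 nuclei in IL-27 replicate 5 and 12 in IL-27 replicate 4 and was not tested.

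Pros1, the ligand of Tyro3 and Mertk, had its highest levels in glia and vessels. Pericytes (157 ± 34.6 CPM), microglia (150 ± 42.1 CPM), endothelial cells (137 ± 58.8 CPM), Muller glia (93.6 ± 13.9 CPM) and astrocytes (78.0 ± 13.8 CPM) formed a run in which each type overlapped with the next. A gap followed: astrocytes were above rods (23.5 ± 2.77 CPM) in 6 of 6 libraries. Amacrine, bipolar and ganglion cells were at 1.87 to 2.57 CPM on average. Muller glia held 51.7% of all Pros1 UMIs, microglia 14.2% and rods, with 29.7% of the nuclei, 12.95%. Endothelial cells held 2.49% and pericytes 1.14%.

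Trem2 and Tyrobp were carried by the immune cluster. Trem2 was at 181 ± 26.7 CPM in microglia (148 to 217 CPM), 18.9 times the 9.58 ± 2.14 CPM of rods, the next type. Muller glia were at 2.9 ± 0.66 CPM, and no Trem2 UMI was found in pericytes. Tyrobp was at 194 ± 36.5 CPM in microglia (144 to 240 CPM), 13.6 times the 14.2 ± 2.72 CPM of rods. Microglia held 49.5% of Trem2 UMIs and 40.9% of Tyrobp UMIs. Their markers were also found at a low level in rods, as given above, and the part of free RNA in the rod values was not tested.

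The promoter of Trem2 is shown because its level set immune nuclei apart, and PU.1, a transcription factor of myeloid cells, binds a core of GAGGAA. Promoters were available for 9 of the 10 genes, and those of Axl, Trem2, Mfge8 and Itgav held this core on either strand, as did 28.3% of all windows, although Mfge8 was low in microglia. None of the 9 held TATAAA, which 13.6% of 32851 windows held. A match of letters is not a bound site, and a window without them says nothing of the factor elsewhere. Trem2 lies at chr17:48346401-48354147 on the plus strand, and its window from 250 bases before to 50 bases after the start (chr17:48346151-48346450, plus strand, RefSeq, GRCm38.p6) has the match, in capitals and on the minus strand, 40 bases before the start.
Trem2: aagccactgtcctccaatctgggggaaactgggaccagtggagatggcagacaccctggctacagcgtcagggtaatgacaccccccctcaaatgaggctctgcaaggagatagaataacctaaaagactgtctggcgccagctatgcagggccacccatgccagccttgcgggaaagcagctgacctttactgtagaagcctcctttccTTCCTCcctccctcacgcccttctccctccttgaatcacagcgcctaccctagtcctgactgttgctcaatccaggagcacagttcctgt

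Mfge8 was low in microglia, at 25.3 ± 7.99 CPM on 84 UMIs. Pericytes (148 ± 67.1 CPM), Muller glia (104 ± 16.1 CPM), cones (82.4 ± 15.3 CPM) and rods (72.3 ± 3.57 CPM) each overlapped with the next. Muller glia held 36.6% of all Mfge8 UMIs and rods 24.6%. Muller glia were above microglia in 6 of 6 libraries, the opposite order to Mertk.

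Itgav and Itgb5, whose proteins pair to form the Mfge8 receptor, had different patterns. Itgav was at 343 ± 48.4 CPM in microglia, 294 ± 35.5 CPM in Muller glia and 276 ± 65.0 CPM in astrocytes, and these 3 types overlapped. Itgb5 was at 739 ± 72.0 CPM in microglia and at 505 ± 24.1 CPM in horizontal cells, interneurons that contact photoreceptors. Horizontal cells ranged from 466 to 537 CPM and lay above pericytes (275 CPM) and Muller glia (122 ± 16.8 CPM) without overlap. With 0.95% of the nuclei, horizontal cells held 23.5% of all Itgb5 UMIs, close to the 23.7% of microglia and 25.04% of Muller glia. Itgav in horizontal cells was at 59.0 ± 11.9 CPM.

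Some of these genes share their position with other genes. Mertk (chr2:128698956-128802894, plus strand, GRCm38, GENCODE M21) overlaps Gm23172 on its own strand and Gm14011 on the other, Gas6 (chr8:13465374-13494490, minus strand) overlaps Tmem255b on the other strand, and Itgav (chr2:83724397-83806916, plus strand) overlaps Dnmt3l-ps1 and Gm13684 on the other strand. No overlapping gene was annotated for Axl (chr7:25757273-25788705, minus strand), Tyro3 (chr2:119797733-119818104, plus strand), Pros1 (chr16:62854307-62929346, plus strand), Trem2, Tyrobp (chr7:30413760-30417585, plus strand), Mfge8 (chr7:79133768-79149060, minus strand) or Itgb5 (chr16:33829665-33949338, plus strand).

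Counted by nuclei, 64.4% of microglial nuclei and 69.4% of Muller nuclei had a Mertk UMI, but Muller nuclei were deeper, with a median of 4428 UMIs against 2108. Nuclei with at least 1000 UMIs were therefore thinned to 1000. This left out 4219 of 15517 rods, 91 of 1565 microglial nuclei and 39 of 4767 Muller nuclei, so the thinned rods are the deeper ones. The shares were then 50.1% in microglia and 27.3% in Muller glia, and 0.34% in rods. Trem2 was seen in 15.3% of thinned microglial nuclei, 0.30% of Muller nuclei and 0.79% of rods. For Gas6 the thinned shares were 9.67% in rods, 9.9% in cones, 7.91% in amacrine cells, 5.7% in microglia and 2.81% in Muller glia, with cones and rods again above amacrine cells and Muller glia the lowest of these 5 types. A thinned share counts nuclei with a UMI and not all nuclei that make the RNA.

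The subclusters of the immune nuclei divided the genes further. They were made from these same nuclei, so the differences between them are given as levels with no test. Mertk was highest in the Siglech and Nav3 nuclei (1543 ± 143 CPM) and the Igf1 and Apbb2 nuclei (1549 ± 120 CPM), with 1029 ± 202 CPM in Ccr2 nuclei and 880 ± 129 CPM in Gpnmb nuclei. No Mertk UMI was found in the H2-Eb1 or the Ccr7 nuclei, and 1 was found in the Lck nuclei.

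Axl had another order. It was at 414 ± 109 CPM in Ccr2 nuclei, 263 ± 49.2 CPM in Gpnmb nuclei and 180 ± 40.2 CPM in homeostatic microglia, and Ccr2 nuclei were above homeostatic microglia in 6 of 6 libraries, 2.30 times on average. Itgav followed Axl, with 533 ± 112 CPM in Ccr2 nuclei, 402 ± 111 CPM in Gpnmb nuclei and 242 ± 27.7 CPM in homeostatic microglia, again higher in Ccr2 nuclei in 6 of 6 libraries.

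Pros1 was mainly found in homeostatic microglia and Gas6 in 1 of their subclusters. Pros1 was at 317 ± 88.2 CPM in homeostatic microglia, and at 62.0 CPM in Ccr2 nuclei and 44.5 CPM in Gpnmb nuclei, both lower in 6 of 6 libraries. Gas6 was at 246 ± 57.4 CPM in the Igf1 and Apbb2 nuclei, 4.37 times the 56.2 ± 28.9 CPM of the Siglech and Nav3 nuclei and higher in 6 of 6 libraries. Gpnmb nuclei, at 64.5 ± 55.9 CPM of Gas6 on 29 UMIs, overlapped with the Siglech and Nav3 nuclei, and Ccr2 nuclei had 27.8 CPM on 28 UMIs.

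Trem2 and Tyrobp were highest in Gpnmb nuclei. Trem2 was at 302 ± 75.8 CPM there, against 203 ± 24.6 CPM in homeostatic microglia and 163 ± 29.4 CPM in Ccr2 nuclei, and the Gpnmb nuclei were above both in 6 of 6 libraries. Tyrobp was at 393 ± 119 CPM in Gpnmb nuclei, 2.52 times the 156 ± 37.2 CPM of homeostatic microglia. The H2-Eb1 and Flt3 nuclei had 148 ± 70.3 CPM of Tyrobp, an adaptor of many myeloid receptors, with 2 Trem2 UMIs in all.

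Itgb5 was at 951 ± 88.1 CPM in the Siglech and Nav3 nuclei, 928 ± 81.2 CPM in Ccr2 nuclei and 660 ± 72.9 CPM in Gpnmb nuclei. The H2-Eb1 nuclei were far lower, at 53.6 CPM on 14 UMIs.

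**Figure D2:**
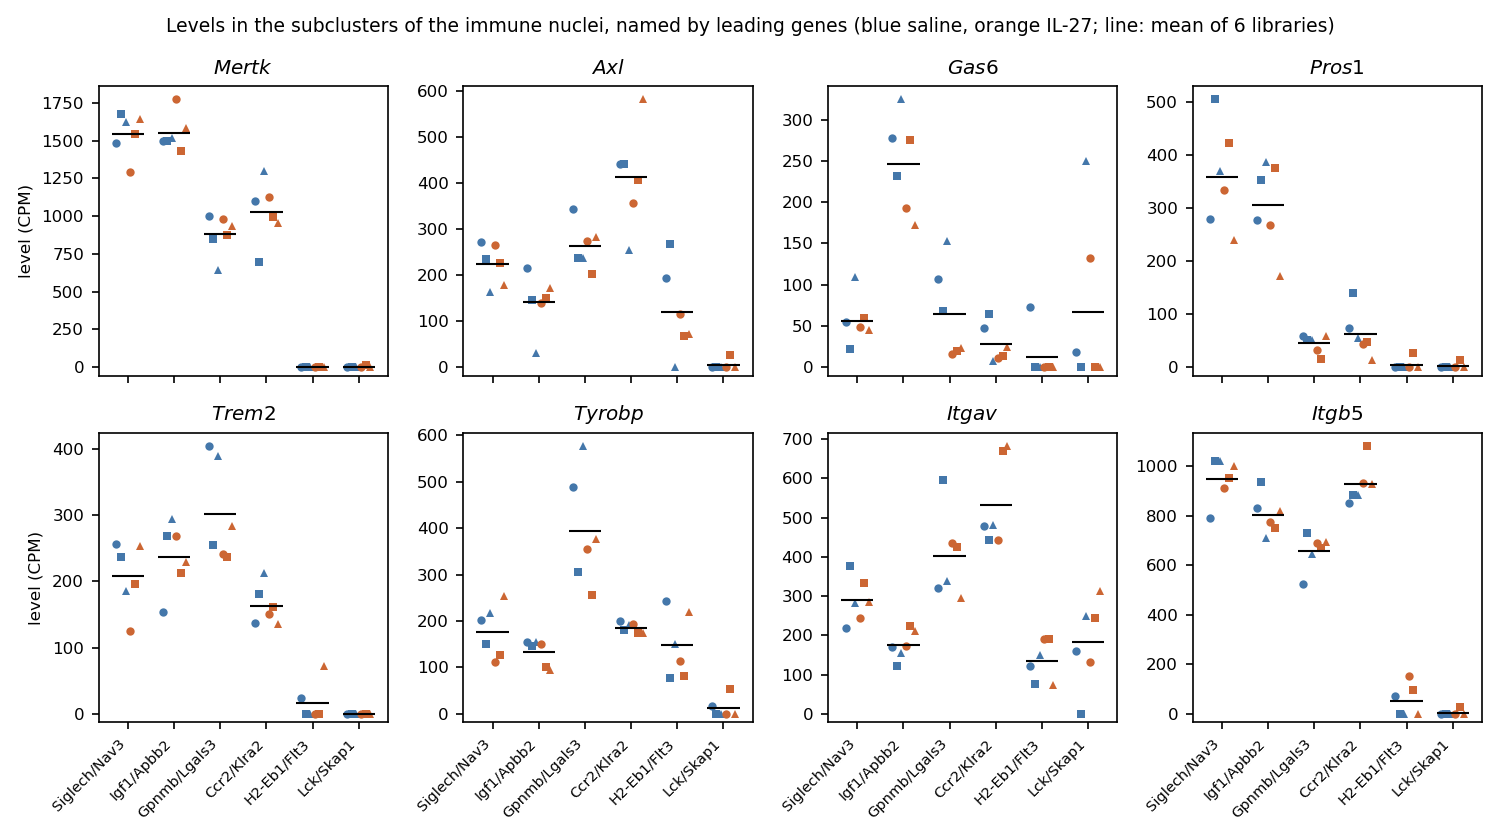
Level in CPM (y axes) of 8 of the genes in 6 subclusters of the immune nuclei (x axes), with 1 point per library (blue saline, orange IL-27) and a black line at the mean of the 6 libraries. Pros1 is concentrated in the Siglech/Nav3 and Igf1/Apbb2 nuclei, Axl and Itgav are highest in the Ccr2/Klra2 nuclei, and Trem2 and Tyrobp in the Gpnmb/Lgals3 nuclei.

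Measured against Muller glia of the same library, homeostatic microglia had 4.04 times the Mertk level, 4.26 times the Axl level, 4.94 times the Gas6 level, 3.39 times the Pros1 level and 7.08 times the Itgb5 level, each in 6 of 6 libraries. Mfge8 was lower in homeostatic microglia in 6 of 6 libraries, at 0.198 of the Muller level. Itgav was higher in homeostatic microglia in 1 of 6 libraries.

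Mertk was found in all Muller subclusters, from 279 ± 40.5 CPM in nuclei led by Adamts19 and Foxp2 to 370 ± 114 CPM in those led by Fkbp5 and Prss56, with overlapping ranges. The second value rests on few UMIs in most libraries, since 823 of its 930 Mertk UMIs came from IL-27 replicate 10 and 2 to 64 from each of the others. Nuclei led by Rsad2, Iigp1 and Cxcl10, genes induced by interferon, were at 317 ± 32.0 CPM. Axl was at 64.8 ± 19.6 CPM in those nuclei and at 39.7 ± 9.88 CPM in nuclei led by Gm29683 and Efnb2, and the ranges overlapped. Itgav was at 438 ± 79.6 CPM in nuclei led by Pik3r5 and Il6ra and at 249 ± 32.3 CPM in nuclei led by Adamts19 and Foxp2, and those ranges did not overlap.

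The retinal pigment epithelium was nearly absent from these retinas. A subcluster of 35 nuclei with its markers was found in 4 of the 6 libraries, and rod markers were detected in it as well. It held 15 Mertk UMIs, which is 77.0 CPM with an exact 95% Poisson interval from 43.1 to 127 CPM that covers counting error only, and no Trem2 or Tyrobp UMI.

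None of the genes differed significantly between IL-27 and saline microglia at P20. Of the 9 genes with enough counts to be tested, 0 passed an adjusted p of 0.05 (edgeR's quasi-likelihood F-test, adjusted after Benjamini and Hochberg over all genes), and of all 8308 genes tested in these nuclei 0 were called (0%). At an unadjusted p under 0.05 there was 1 of the 9 genes, against 270 of all genes (3.25%). In 1 of the 9 the groups did not overlap, against 8.02% of all genes. The median log2 fold change of IL-27 over saline was -0.29 over the 9 genes and -0.001 over all genes. For 8 of the 9 genes the log2 fold change was below 0, and among these Mertk, Axl and Itgb5 turned under other settings. DESeq2 called 0 of the genes as well.

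Gas6 had the smallest p in microglia. It was at 89.6, 56.2 and 109.5 CPM in saline replicates 1, 2 and 6 and at 52.3, 57.5 and 47.8 CPM in IL-27 replicates 4, 5 and 10. Saline replicates 1 and 6 were higher than all IL-27 libraries, and saline replicate 2 lay among them. IL-27 over saline gave a log2 fold change of -0.67 (95% interval -1.21 to -0.13), with an unadjusted p of 0.0179 and an adjusted p of 0.999 in edgeR. The sums of homeostatic microglia held 172 Gas6 UMIs. Their nuclei were filtered by count separately, so these are not a subset of the 224 UMIs in the whole-cluster sums. The log2 fold change in homeostatic microglia was -0.23 (-0.83 to 0.37).

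Mfge8 was the gene whose groups did not overlap. Its levels were 30.9, 32.4 and 28.6 CPM with saline and 27.9, 20.7 and 11.2 CPM with IL-27, on 4 to 19 UMIs a library. The highest IL-27 library was just below the lowest saline library. The log2 fold change was -0.55 (-1.30 to 0.20), with an adjusted p of 0.999 in edgeR. Homeostatic microglia held 27 Mfge8 UMIs, too few for the test, and were at 17.5, 27.4 and 22.1 CPM with saline and 31.2, 17.7 and 7.32 CPM with IL-27, which overlapped.

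Mertk was close to equal in the groups. Its microglial levels were 974, 939 and 1145 CPM with saline and 1097, 893 and 972 CPM with IL-27, and the log2 fold change was -0.05 with a 95% interval from -0.39 to 0.29. Homeostatic microglia had 1327, 1396 and 1439 CPM with saline and 1395, 1372 and 1289 CPM with IL-27, a log2 fold change of -0.03 (-0.36 to 0.30). In both sets the groups overlapped.

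Axl was at 283, 290 and 169 CPM with saline and 242, 228 and 287 CPM with IL-27 in microglia, a log2 fold change of -0.0007 (-0.42 to 0.42). Saline replicate 6 was the lowest of the 6 libraries, and the others overlapped. Itgb5 likewise had a log2 fold change near 0, at -0.0087 (-0.35 to 0.34). In homeostatic microglia the values were 0.05 (-0.46 to 0.57) for Axl and -0.01 (-0.36 to 0.33) for Itgb5.

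Trem2 and Tyrobp were on average lower with IL-27, but not beyond the spread between libraries. Trem2 was at 181, 199 and 217 CPM with saline and 148, 153 and 191 CPM with IL-27, a log2 fold change of -0.29 (-0.67 to 0.08). Tyrobp was at 226, 171 and 240 CPM with saline and 178, 144 and 205 CPM with IL-27, a log2 fold change of -0.30 (-0.71 to 0.10). The groups overlapped for both genes. In homeostatic microglia, where they overlapped too, the log2 fold change was -0.25 (-0.70 to 0.20) for Trem2 and -0.46 (-0.99 to 0.07) for Tyrobp.

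Pros1 was at 125, 218 and 164 CPM with saline and 157, 145 and 92.7 CPM with IL-27, with a log2 fold change of -0.33 (-0.83 to 0.18). Itgav was the 1 tested gene with a log2 fold change above 0, at 0.18 (-0.18 to 0.54). Its levels were 288, 348 and 331 CPM with saline and 308, 428 and 357 CPM with IL-27. Both overlapped between groups. In homeostatic microglia Pros1 had a log2 fold change of -0.10 (-0.57 to 0.37) and Itgav one of 0.18 (-0.25 to 0.60).

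**Figure D3:**
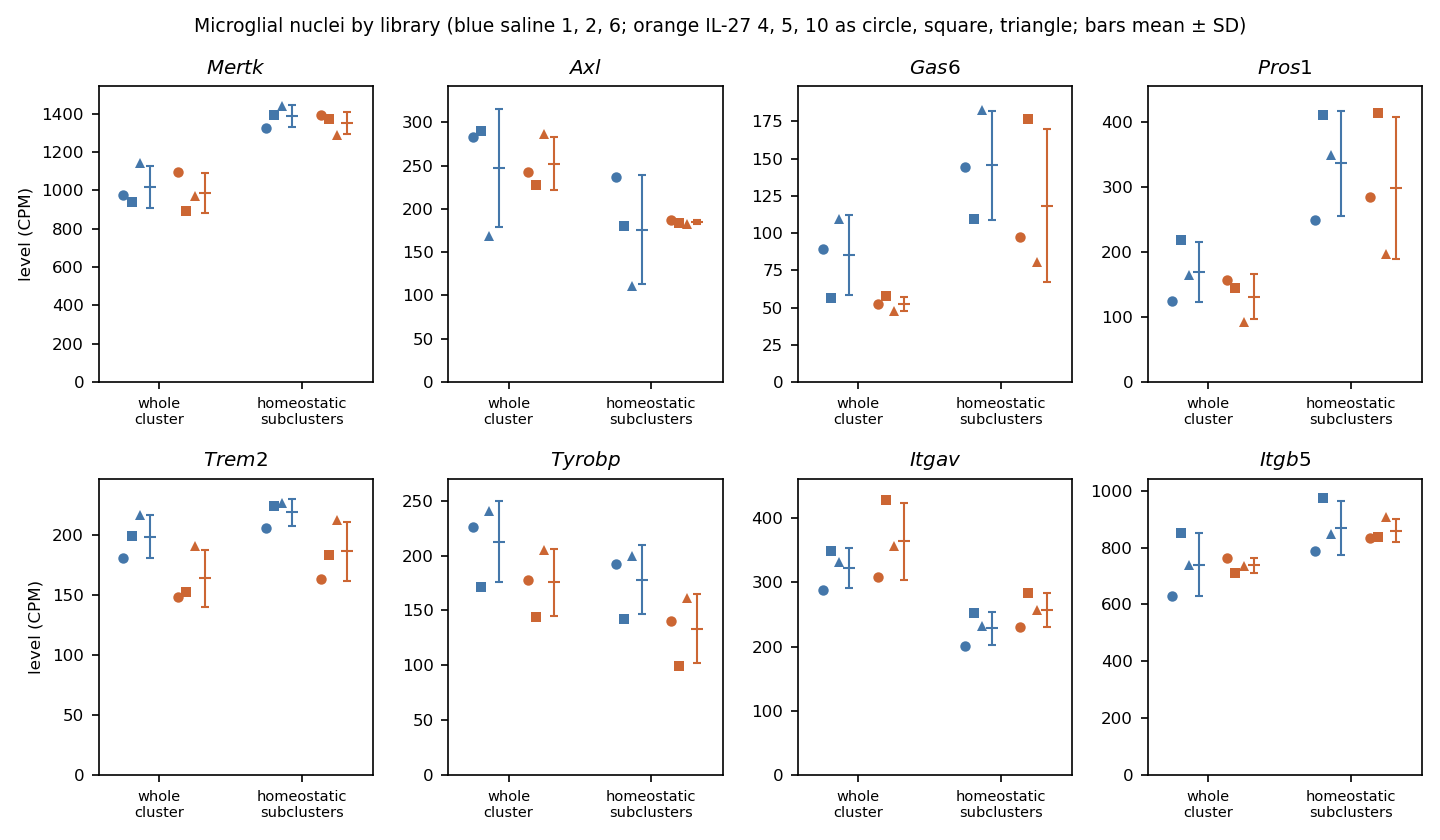
Level in CPM (y axes) of 8 genes in the whole microglial cluster and in homeostatic microglia, with 1 point per library (blue saline replicates 1, 2 and 6, orange IL-27 replicates 4, 5 and 10) and bars at the group mean ± SD. The groups overlap in every panel; for Gas6, the IL-27 libraries lie close together in the whole cluster (47.8 to 57.5 CPM) and are spread in the homeostatic nuclei, where replicates 4 and 10 are below all saline libraries and replicate 5 is at 177 CPM.

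The makeup of the cluster varied between libraries. Microglial nuclei were 2.64 ± 0.42% of retained nuclei with saline and 3.36 ± 1.54% with IL-27, a difference of 0.72 percentage points (two-sided exact permutation test, p = 0.7, where 0.1 is the smallest p that 3 against 3 libraries allow). IL-27 replicate 5 had 5.04%, the highest of all, and without it the difference was -0.12. Gpnmb nuclei were 12.6 to 13.3% of the cluster with saline and 9.09, 23.2 and 24.3% with IL-27 (exact permutation p = 0.4). Ccr2 nuclei were 33.3 to 39.3% with saline and 37.5, 30.9 and 26.6% with IL-27 (exact permutation p = 0.2). The part of these shares in the values of the whole cluster was not tested, apart from the values within subclusters.

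Within subclusters 0 genes were called as well. In homeostatic microglia 8 of the 10 genes were tested and 0 of all 4680 genes passed in edgeR (0%), in Ccr2 nuclei 6 were tested with 0 of 4000 (0%), and in Gpnmb nuclei 6 with 0 of 1720 (0%). At an unadjusted p under 0.05 there were 0 of the 8 tested genes in homeostatic microglia, 0 of the 6 in Ccr2 nuclei and 1 of the 6 in Gpnmb nuclei, against 3.01%, 2.55% and 7.03% of all genes in these nuclei. In 0 of the 8 tested genes did the groups not overlap in homeostatic microglia, against 8.33% of all genes there. Tyrobp in Gpnmb nuclei had the smallest p of the members tested in these subclusters, at 475, 340 and 613 CPM with saline and 378, 261 and 293 CPM with IL-27. Saline replicate 2 lay between the IL-27 libraries, so the groups overlapped. Its log2 fold change was -0.72 (-1.37 to -0.06), with an unadjusted p of 0.0348 and an adjusted p of 0.615 in edgeR. Trem2 in these nuclei was at 334, 283 and 408 CPM with saline and 216, 241 and 269 CPM with IL-27, all 3 saline libraries above, with a log2 fold change of -0.54 (-1.17 to 0.08) and an adjusted p of 0.783 in edgeR. It was the 1 of the 6 tested genes whose groups did not overlap in Gpnmb nuclei, against 11.4% of all genes there. Pros1 in Ccr2 nuclei had too few UMIs for the test, with 58 in all and 1 in IL-27 replicate 10. Its saline libraries, at 54.1, 127 and 55.7 CPM, were above the IL-27 libraries at 43.5, 49.8 and 12.4 CPM. The groups overlapped for all 6 tested genes in Ccr2 nuclei, and the share of all genes without overlap was not computed there.

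Muller glia gave no call among the 10 genes either. All 10 were tested and 0 passed, where 5 of all 13541 genes did (0.0369%). At an unadjusted p under 0.05 there were 0 of the 10, against 5.1% of all genes, and in 1 of the 10 the groups did not overlap, against 10.5% of all genes. The median log2 fold change was -0.004, with 4 genes higher and 6 lower, of which Tyro3, Axl, Trem2 and Tyrobp turned under other settings. DESeq2 called 0 as well.

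Itgav was the gene whose groups did not overlap in Muller glia. It was at 275, 250 and 291 CPM with saline and at 293, 297 and 357 CPM with IL-27, and IL-27 replicate 4 was only just above saline replicate 6. The log2 fold change was 0.21 (-0.02 to 0.44), with an adjusted p of 0.96 in edgeR. IL-27 replicate 10, the library that stood apart in its Muller nuclei, was the highest, and without it the value was 0.14.

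Mertk was at 339, 292 and 338 CPM with saline and 356, 326 and 385 CPM with IL-27 in Muller glia. The IL-27 libraries overlapped the saline range through replicate 5. Its log2 fold change was 0.14, with an interval from -0.09 to 0.36.

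The ligands and Mfge8 also overlapped between groups in Muller glia. Pros1 was at 86.9, 79.6 and 97.5 CPM with saline and 88.2, 90.0 and 119.5 CPM with IL-27, a log2 fold change of 0.17 (-0.11 to 0.45). Gas6 had a log2 fold change of -0.21 (-0.55 to 0.14). Mfge8 was at 99.5, 119 and 117 CPM with saline and 99.2, 76.0 and 113 CPM with IL-27, a log2 fold change of -0.22 (-0.52 to 0.08), with IL-27 replicate 5 the lowest. Itgb5 was at 130, 119 and 144 CPM with saline and 126, 121 and 93.2 CPM with IL-27, a log2 fold change of -0.20 (-0.49 to 0.09), with IL-27 replicate 10 the lowest. Without IL-27 replicate 10 the values were 0.10 for Mertk, 0.045 for Pros1 and -0.06 for Itgb5.

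These Muller values depend on where the cluster ends. A saline-enriched cluster with ciliary epithelium markers made up, of the Muller nuclei and itself together, 12.2 to 21.7% in the saline libraries, 1.49 and 0.72% in IL-27 replicates 4 and 5, and 13.7% in IL-27 replicate 10. With it added to the Muller sums, an alternative chosen after the data were seen, 0 of the 10 genes passed an adjusted p of 0.05 in edgeR, where 4 of 13986 genes did (0.0286%). At an unadjusted p under 0.05 there were 4 of the 10, against 9.04% of all genes. Gas6 was then at 53.6, 58.4 and 47.4 CPM with saline and 25.2, 22.9 and 44.3 CPM with IL-27, a log2 fold change of -0.78 (unadjusted p 0.00464, adjusted p 0.291). Mertk was at 290, 242 and 311 CPM with saline and 352, 324 and 348 CPM with IL-27, a log2 fold change of 0.30 (unadjusted p 0.0291, adjusted p 0.482). Itgav had 0.33 (adjusted p 0.398) and Pros1 0.31 (adjusted p 0.536). In these sums all IL-27 libraries were above saline for 2 of the 10 genes, Mertk among them, and all saline libraries were above for 1, Gas6. The share of all genes without overlap was not computed for these sums, so nothing is read from these counts. The cluster itself was at 226 CPM of Gas6 and 48.1 CPM of Mertk, against 26.7 and 339 CPM in Muller glia.

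**Figure D4:**
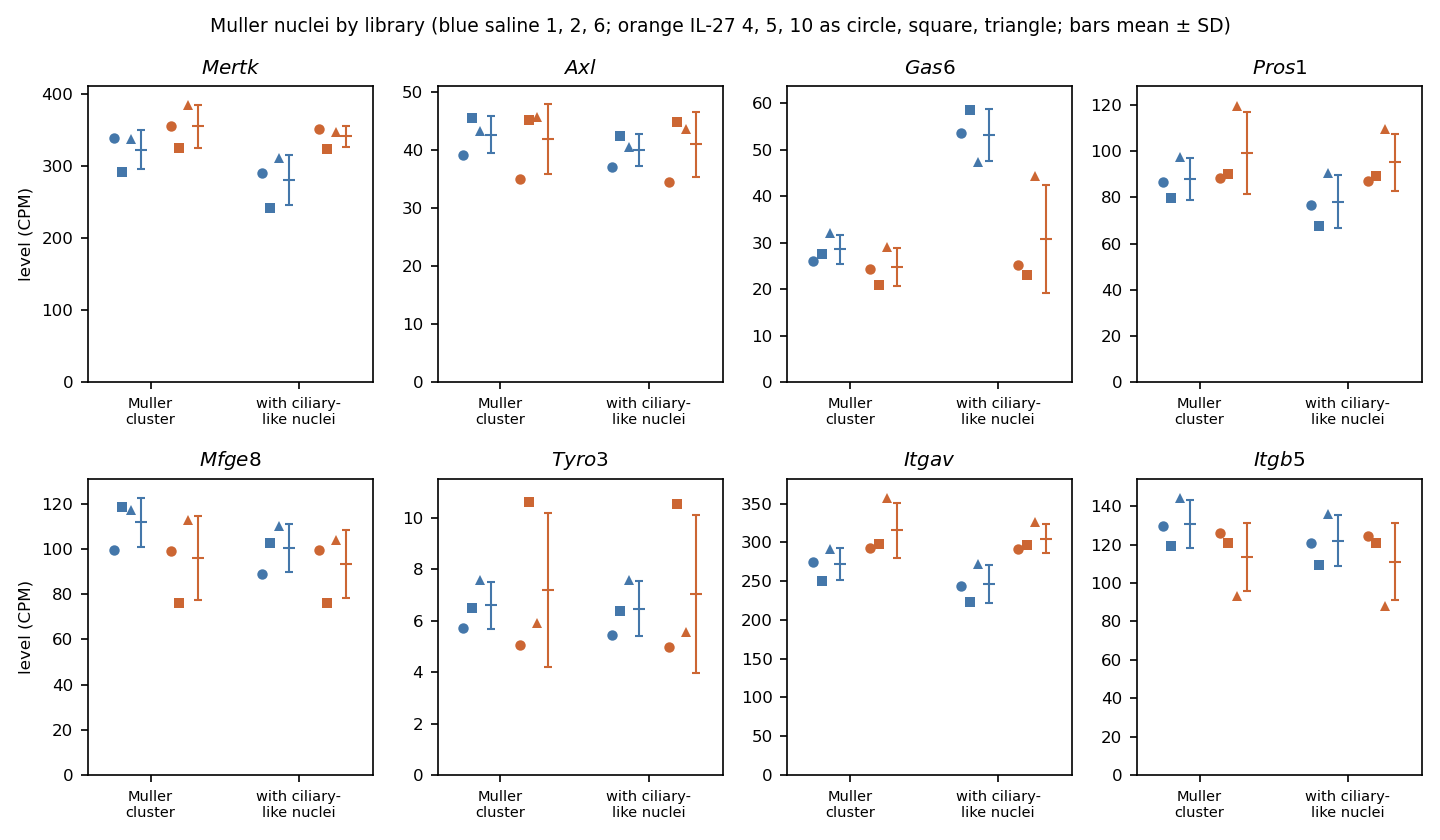
Level in CPM (y axes) of 8 genes in the Muller cluster and in the Muller cluster joined with the saline-enriched nuclei that carry ciliary epithelium markers, with 1 point per library (blue saline, orange IL-27) and bars at the group mean ± SD. The panel of Gas6 shows the groups overlapping without those nuclei (26.1 to 32.1 CPM with saline, and 24.4 and 29.1 CPM in IL-27 replicates 4 and 10) and separate with them. The groups of Mertk are also separate with those nuclei, with IL-27 above. The share of all genes whose groups separate in the joined sums was not computed.

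Whether microglia and Muller glia responded differently was tested as an interaction over the sums of both types, with the library as a block. Of the 10 genes 0 differed in edgeR, where 4 of 14033 genes passed the adjusted threshold (0.0285%), and 0 had an unadjusted p under 0.05, against 4.99% of all genes. The smallest p belonged to Pros1, whose log2 fold change was lower in microglia than in Muller glia by a difference of -0.45 (95% interval -0.94 to 0.03, unadjusted p 0.0642, adjusted p 1 in edgeR). With homeostatic microglia in place of the whole cluster it was -0.21 (-0.68 to 0.26). Mertk differed by -0.19 (-0.54 to 0.16). No value is given for Tyro3, since microglia had 3 UMIs.

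**Figure D5:**
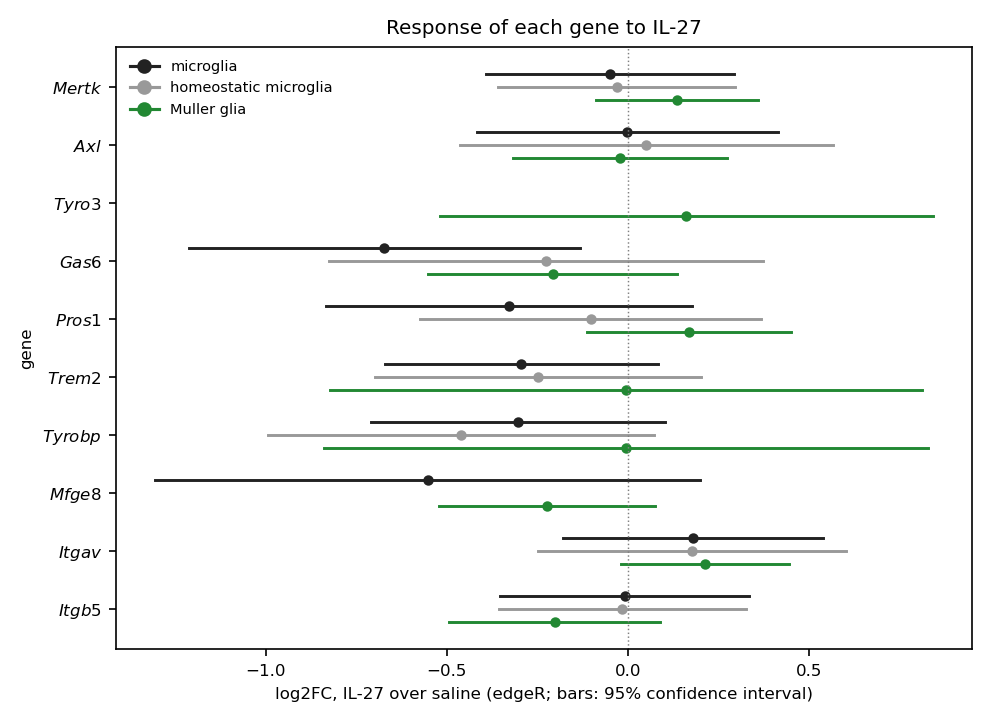
Log2 fold change of IL-27 over saline (x axis) for each gene (y axis) in the microglial cluster (black), homeostatic microglia (grey) and Muller glia (green), with points at the edgeR estimate and bars for the 95% confidence interval. All intervals cover 0 except that of Gas6 in the microglial cluster (-1.21 to -0.13), whose adjusted p is 0.999.

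In the remaining cell types 0 of the tested genes were called by edgeR or DESeq2, and few genes of any kind were. Of the 10 genes all were tested in rods (0.00755% of all genes called) and amacrine cells (0.00615%), 9 in bipolar cells (0%), 5 in cones (0%), 5 in ganglion cells (0%), 4 in horizontal cells (0%), 3 in astrocytes (0%), and 1 each in endothelial cells (0%) and pericytes (0.111%). In 3 of these 48 tests the unadjusted p was under 0.05, against 3.43% of the tests of all genes in these types.

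Itgav in rods was at 25.4, 26.9 and 21.1 CPM with saline and 35.2, 33.2 and 26.7 CPM with IL-27, a log2 fold change of 0.36 (0.01 to 0.71, unadjusted p 0.0457, adjusted p 0.998 in edgeR). IL-27 replicate 10 lay just below saline replicate 2. Tyrobp in bipolar cells was at 3.38, 3.49 and 3.52 CPM with saline and 4.61, 4.43 and 6.28 CPM with IL-27, a log2 fold change of 0.57 (0.07 to 1.07, unadjusted p 0.0298, adjusted p 0.999). Bipolar cells are not known to make this myeloid adaptor, and the part of free RNA in the value was not tested. Pros1 in horizontal cells was at 12.5, 7.35 and 12.9 CPM with saline and 10.9, 23.0 and 34.3 CPM with IL-27, a log2 fold change of 0.89 (0.03 to 1.74, adjusted p 0.968), with the groups overlapping through IL-27 replicate 4.

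Mfge8 in rods had very even saline values, 75.4, 75.5 and 75.4 CPM, and all 3 IL-27 libraries were lower, at 69.2, 67.6 and 70.6 CPM. The log2 fold change was -0.12 (-0.34 to 0.10, adjusted p 0.998 in edgeR). Of the 10 genes tested in rods, Mfge8 was the 1 with saline above and Mertk the 1 with IL-27 above. Groups did not overlap for 8.46% of all genes in rods. Mertk was at 4.1105, 3.97 and 3.24 CPM with saline and 4.29, 4.98 and 4.1113 CPM with IL-27. Its log2 fold change was 0.21 (-0.49 to 0.91, adjusted p 0.998 in edgeR). Itgb5 in horizontal cells was at 522, 498 and 466 CPM with saline and 503, 537 and 503 CPM with IL-27, a log2 fold change of 0.05 (-0.16 to 0.27). Outside rods, groups also did not overlap for Tyrobp in bipolar cells, with IL-27 above, and Mfge8 in ganglion cells, with saline above. Mfge8 in ganglion cells had a log2 fold change of -0.58 (-1.19 to 0.04). The share of all genes without overlap was not computed for bipolar or ganglion cells.

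Summed over all nuclei of a library, as a bulk sample would be, 0 of the 10 genes were called, and 0 had an unadjusted p under 0.05 in edgeR, where 0 of 20358 genes were called (0%) and 2.82% had an unadjusted p under 0.05. The log2 fold changes ran from -0.03 for Mfge8 to 0.26 for Tyrobp. In such sums fewer cells of a type and less RNA per cell cannot be told apart. Tyrobp was at 7.5, 6.5 and 6.49 CPM with saline and 7.1, 9.32 and 8.21 CPM with IL-27, and IL-27 replicate 5, which had the most immune nuclei, was the highest.

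The wider clearance pathway was followed with a list of 90 further genes, from find-me signals to phagosome digestion. In microglia 73 were tested and 0 were called, with 4 at an unadjusted p under 0.05, 45 higher and 28 lower, and a median log2 fold change of 0.03 against -0.001 over all genes. In homeostatic microglia 61 were tested and 0 were called, with 1 at an unadjusted p under 0.05, 41 higher and 20 lower and a median of 0.12. In Muller glia 63 were tested and 0 were called, with 2 at an unadjusted p under 0.05, 35 higher and 28 lower and a median of 0.03. The shares of all genes at an unadjusted p under 0.05 were 3.25%, 3.01% and 5.1% in these nuclei. The groups did not overlap for 9 of the 73 genes in microglia, 7 of the 61 in homeostatic microglia and 3 of the 63 in Muller glia, against 8.02%, 8.33% and 10.5% of all genes. By part of the pathway, the medians in microglia ran from -0.08 for the 3 tested find-me genes to 0.15 for the 13 tested engulfment receptors and integrins.

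Cd36, a scavenger receptor for oxidised lipids and dying cells, had the smallest p of the list in microglia. It was at 39.1, 26.0 and 42.9 CPM with saline and 48.8, 64.4 and 112 CPM with IL-27, so that all 3 IL-27 libraries were above. The log2 fold change was 0.99 (0.32 to 1.66, unadjusted p 0.00655, adjusted p 0.999 in edgeR). In homeostatic microglia Cd36 was at 56.9, 5.47 and 66.4 CPM with saline and 31.2, 95.5 and 14.6 CPM with IL-27, which overlapped, with a log2 fold change of 0.27 (-0.852 to 1.397). In these sums 5 UMIs of a gene were 27.4 CPM in saline replicate 2 and 1 UMI was 7.32 CPM in IL-27 replicate 10. The lowest Cd36 values therefore rest on very few UMIs.

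Itga5, the fibronectin-binding integrin chain, had all 3 IL-27 libraries above saline in both glia. Microglia were at 50.5, 41.1 and 30.9 CPM against 54.0, 74.7 and 61.8 CPM, a log2 fold change of 0.62 (0.06 to 1.19, adjusted p 0.999 in edgeR). Muller glia were at 7.79, 7.28 and 5.45 CPM against 8.61, 10.6 and 10.0 CPM, a log2 fold change of 0.50 (-0.01 to 1.01, adjusted p 0.96).

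Other genes of the list with groups that did not overlap in microglia included Xkr4 and Anxa5. Xkr4, listed for phosphatidylserine exposure, had a log2 fold change of 0.75 (0.012 to 1.481). It held 177760 UMIs over all retained nuclei, and the part of free RNA in its microglial value was not tested. Anxa5, which binds phosphatidylserine, was at 0.45 (-0.10 to 0.99). Itgb1, the common integrin beta chain, was at -0.33 (-0.69 to 0.03) and Becn1, of autophagy, at -0.34 (-0.81 to 0.14), both with saline above. In Muller glia Megf11, a relative of the engulfment receptor Megf10, was at 15.4, 14.8 and 13.9 CPM with saline and 18.7, 19.7 and 28.1 CPM with IL-27, a log2 fold change of 0.57 (0.18 to 0.97, unadjusted p 0.00861, adjusted p 0.889 in edgeR). Scarb1, a lipoprotein and phosphatidylserine receptor, had saline above, with a log2 fold change of -0.16 (-0.38 to 0.05).

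Genes with the most similar pattern over the 12 cell types were found from log2(mean CPM + 1), among genes with at least 50 CPM in a type. For Trem2 they were Itgam (Pearson r = 0.97), Ms4a6d (0.97) and Cybb (0.97), and for Tyrobp Ctss (0.98), H2-Eb1 (0.98) and Fcrls (0.98). For Mertk they were Tgif1 (0.97), Slc8b1 (0.96) and Zfp277 (0.96), and for Axl Lgals3bp (0.96), Dars (0.96) and Tgif1 (0.96). Pros1 was most like Irf7 (0.96), Ifit3 (0.95) and Phf11d (0.95), Itgav like Tor3a (0.95), Lamp2 (0.95) and Trim30d (0.94), and Mfge8 like Acadm (0.93), Mpp5 (0.90) and Arid2 (0.90). Gas6 was most like Slc7a6os (0.91), Mrpl42 (0.89) and 1500011B03Rik (0.84), Itgb5 like Ubap2l (0.90), Rsf1 (0.83) and Zfp984 (0.82), and Tyro3 like Rarb (0.88), Bmper (0.81) and Gm16351 (0.80). These are descriptions over 12 points that share their libraries.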

How the data were processed

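The 10 genes and the lists were chosen with earlier results of these data known. The deposited values are UMI counts, whole numbers per gene and barcode that the authors obtained with Cell Ranger (9.0.1 in the labels, 8.0.1 in the file headers) and did not normalize. The genome build is not given in the sources used here, and the deposited files hold no coordinates.

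Nuclei needed over 500 UMIs, 200 genes and less than 5% mitochondrial counts. Scrublet (in scanpy 1.11.5) ranked nuclei for doublet removal, with a rate of 8% assumed. Louvain clustering used 2000 variable genes, 25 components and a resolution of 0.25. A cluster was named from at least 3 detected markers, and 3390 nuclei stayed unnamed. A second clustering of the immune and Muller nuclei took 4000 variable genes and 10 components. Sums per library and type excluded nuclei whose log2 count was over 2 median absolute deviations away from their type's median, except in subclusters shown by level alone. Levels are CPM of those sums and are not compared between genes.

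The low-count filter was filterByExpr (10 counts), scaling was by TMM, and edgeR 4.0.16 (quasi-likelihood, R 4.3.3) gave p-values, adjusted by Benjamini-Hochberg over all genes tested in a type, with a threshold of 0.05. Scripts were tested on simulated counts. No set test was run. With 3 against 3 libraries no exact permutation p can go below 0.1. Intervals on shares and counts cover counting error only. Replicate libraries of a group differed beyond counting noise. Of the wider list, up to 4 genes per direction and type were named, with the smallest p among those whose groups did not overlap, and for pattern likeness the 3 genes with the highest correlation. Promoters came from a RefSeq table (GRCm38.p6), which matched 9 of the 10 genes, and loci from GENCODE M21 on GRCm38. Motifs other than GAGGAA and TATAAA are not reported here. Alternatives were DESeq2 1.42.0 and its size factors, library totals, other low-count filters, sums of all nuclei, doublets kept, a mitochondrial limit of 1%, a resolution of 0.5, Xist or the saline-enriched share as a covariate, thinning to 500 UMIs, and each library left out in turn.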

Additional observations from a re-analysis of the deposited data

How the results depend on the processing

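Over 122 recomputed counts the number of called genes stayed at 0 for the 10 genes (in microglia, Muller glia, each other type tested, all nuclei and the interaction) and for the wider list in microglia and Muller glia. DESeq2 was run for all of these except the interaction. Of 440 recomputed levels 428 moved by less than 1 SD between libraries, while 38 of 40 shares of nuclei with a UMI moved beyond their counting interval when nuclei were thinned. Fewer UMIs per nucleus lower such a share by themselves, so this move does not test the result. The planned removal of the saline-enriched nuclei from the Muller cluster gives the Muller result as reported, since the naming by markers had already left them out.

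Fold changes were recomputed for the 10 genes in microglia and Muller glia and for Itgav in rods, Tyrobp in bipolar cells and Pros1 in horizontal cells. Among these the direction turned for genes with a reported log2 value of at most 0.162 in either direction, and the cause was not tested. With all retained nuclei summed, microglial Mertk became 0.0532, Axl 0.0816 and Itgb5 0.084, and in Muller glia Axl became 0.0136, Trem2 0.1735 and Tyrobp 0.0127. Axl in microglia was also 0.0064 with library totals, 0.0131 with no filter on low counts, 0.004 with a filter of 30 counts, 0.0004 with Xist as a covariate, 0.0051 without the nuclei of photoreceptor or neuronal genes and 0.0519 in homeostatic nuclei only, and Itgb5 was 0.0045 with no filter. In Muller glia, a covariate for the saline-enriched share gave 0.0569 for Axl, -0.3576 for Tyro3 and 0.2684 for Trem2. Adding that cluster gave 0.0581 for Axl, 0.0859 for Trem2 and 0.0394 for Tyrobp, and adding it with that covariate gave 0.0837 for Axl, -0.4208 for Tyro3 and 0.1412 for Trem2. Trem2 was 0.0596 with no removal of doublets, and Tyrobp 0.0011 in nuclei under 1% mitochondrial counts.

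Leaving out each library in turn moved microglial Mertk from -0.146 to 0.039, Axl from -0.203 to 0.131 and Itgb5 from -0.121 to 0.114, and in Muller glia Axl from -0.093 to 0.084, Tyro3 from -0.271 to 0.364, Trem2 from -0.184 to 0.223 and Tyrobp from -0.256 to 0.391. Gas6 in microglia stayed below 0, from -0.881 to -0.475. The difference in the share of microglial nuclei ran from -0.1227 (without IL-27 replicate 5) to 1.3893 percentage points. Over the alternatives the smallest adjusted p was 0.0977 in edgeR, for Itgb5 in Muller glia (log2 fold change -0.623). That fit had the saline-enriched share as a covariate.

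With homeostatic microglia in place of the whole cluster, the difference of the responses of microglia and Muller glia turned for Gas6 from -0.43 to 0.04 and for Mfge8 from -0.28 to 0.21, and its direction turned for Itgav as well (-0.03 to 0.02).

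No paired analysis was possible because the groups share no replicate number. Few UMIs limit the comparison of the groups for Tyro3 in microglia (3 UMIs) and for Trem2 and Tyrobp outside immune nuclei.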
